A study of Homo sapiens with 12 samples.

Results

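The mitochondrial ribosomal protein genes were followed in THP-1 monocytic cells and BEAS-2B bronchial epithelial cells exposed to an extract of poultry dust. Members were all genes whose symbol in the array annotation began with MRPL or MRPS followed by a digit. This rule found 80 of 20045 named genes, read by 115 probes, and each gene was represented by the probe with the highest mean signal. Of the 80, 76 code for proteins. The other 4 were the pseudogenes MRPL42P5 and MRPS31P5 and the antisense RNAs MRPL20-AS1 and MRPL23-AS1. A signal counted as well above background where its detection p was under 0.01. In all, 78 members met this in both replicates of some group and were tested. MRPL23-AS1 reached that level on 0 arrays and MRPS31P5 on 2, and they were not tested.

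Mitochondrial ribosomes translate the few proteins encoded by mitochondrial DNA, which are core parts of the respiratory chain and the ATP synthase. They consist of a large subunit, which joins amino acids, and a small subunit, which reads the messenger RNA. Their ribosomal RNAs come from mitochondrial DNA, whereas all of their proteins are encoded in the nucleus, made in the cytosol and imported. Some of these proteins have counterparts in bacterial ribosomes and others are particular to mitochondria. Names beginning with MRPL mark proteins first assigned to the large subunit and MRPS those first assigned to the small one, but MRPS18A and MRPS30 are known to sit in the large subunit.

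RNA was measured with a human Illumina BeadChip on 12 arrays of 1 chip, in 6 groups of 2 arrays. THP-1, a monocytic leukaemia line, was labelled as control in medium alone or as exposed to 0.1% dust extract for 1 h or 3 h. BEAS-2B, a virus-immortalised bronchial epithelial line, had the same 3 groups with 0.25% extract. All cells had been starved of serum overnight, and how long the controls stayed in medium is not stated. The dose, the cell line and the position on the chip changed together, so that these cannot be told apart in any comparison between the lines.

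The source field of the THP-1 arrays names another line, spelled A459, while their title and cell line field name THP-1. Of 16 monocyte markers with a probe, 15 were well above background on all 6 THP-1 arrays and 12 were on none of the BEAS-2B arrays. Of 11 epithelial markers, all 11 were well above background on all 6 BEAS-2B arrays and 10 on none of the THP-1 arrays. Of 10 markers of A549 and alveolar cells, 3 were well above background on all 6 THP-1 arrays and 6 on none. On the BEAS-2B arrays these counts were 2 and 6. The 75th percentile of raw signal was 126 and 127 on the THP-1 3 h arrays and between 144 and 181 on the other 10. Between the arrays of a group, the median SD of the members ranged from 0.0658 to 0.148 on the log2 scale. Nothing states that the arrays of a group came from separate cultures, so p-values measure only the spread between these samples, which may be technical.

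Promoter sequences are shown first because the members moved in opposite directions in THP-1 at 3 h and because the letters of 3 known regulators were found in a larger share of them than of all promoters, a description with no test. RefSeq promoters (GRCh38.p14, 250 bases before to 50 after the start) were matched for 68 of the 76 protein-coding members. Exact letters of 5 motifs were searched on both strands. These were GCGCATGC for NRF1 and CCGGAAGT for the ETS family, to which GABPA belongs, both known activators of nuclear genes for mitochondrial proteins. The others were AAGATGGCG for YY1, GGGGCGGGG for Sp1 and CACGTG, the E-box that MYC binds. The YY1 letters were in 13 of 68 member promoters, or 19.1%, against 2.74% of all 15843 protein-coding promoters. The ETS letters were in 14.7% against 6.19% and the NRF1 letters in 8.82% against 4.26%. The Sp1 letters were in 25% against 22.4%, and the E-box in 8.82% against 8.88%. Of the 68 members, 17 had another protein-coding gene starting head to head within 1000 bases, or 25% against 10.3% of all promoters. Among these pairs were MRPS12 with SARS2, 181 bases apart, MRPL18 with TCP1, 210 bases apart, and MRPL49 with FAU, 49 bases apart.

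Printed here, from those with a motif, are the largest falls and the largest rises in THP-1 at 3 h. Capitals mark the motif, all sequences run 5′ to 3′ on the strand of the gene, and the gene starts after base 250.
MRPL1, fell, chr4:77862580-77862879, plus strand: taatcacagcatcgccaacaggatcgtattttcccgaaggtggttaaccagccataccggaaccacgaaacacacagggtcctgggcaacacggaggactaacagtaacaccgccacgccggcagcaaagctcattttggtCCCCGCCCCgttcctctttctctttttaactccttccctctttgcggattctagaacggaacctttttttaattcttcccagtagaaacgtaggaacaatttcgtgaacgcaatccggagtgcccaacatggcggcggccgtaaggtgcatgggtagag
MRPS34, fell, chr16:1773085-1773384, minus strand: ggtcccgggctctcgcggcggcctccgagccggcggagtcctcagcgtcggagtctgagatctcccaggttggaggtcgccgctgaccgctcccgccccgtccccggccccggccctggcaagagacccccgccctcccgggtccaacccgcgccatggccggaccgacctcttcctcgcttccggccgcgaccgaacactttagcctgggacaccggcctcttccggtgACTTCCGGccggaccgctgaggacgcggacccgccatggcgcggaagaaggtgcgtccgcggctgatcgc
MRPS24, rose, chr7:43869468-43869767, minus strand: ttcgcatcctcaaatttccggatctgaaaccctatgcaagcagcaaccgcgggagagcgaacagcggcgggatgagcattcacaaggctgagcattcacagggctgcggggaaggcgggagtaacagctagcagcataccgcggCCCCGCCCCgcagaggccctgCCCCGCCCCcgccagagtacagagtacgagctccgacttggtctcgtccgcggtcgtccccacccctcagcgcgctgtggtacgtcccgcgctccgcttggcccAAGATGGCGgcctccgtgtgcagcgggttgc
MRPL50, rose, chr9:101398569-101398868, minus strand: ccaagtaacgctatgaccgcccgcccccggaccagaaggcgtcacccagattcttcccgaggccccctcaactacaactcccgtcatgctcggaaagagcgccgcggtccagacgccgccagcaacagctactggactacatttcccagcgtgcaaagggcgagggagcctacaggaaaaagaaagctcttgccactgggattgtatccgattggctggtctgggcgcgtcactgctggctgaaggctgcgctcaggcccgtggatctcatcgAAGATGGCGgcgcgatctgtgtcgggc
The MRPL1 window held the reverse complement of the Sp1 letters at position -109, counted from the start. In MRPS34 the reverse complement of the ETS letters stood at position -20. The MRPS24 window held the reverse complement of the Sp1 letters at positions -106 and -85 and the YY1 letters at position 19. MRPL50 had the YY1 letters at position 23.

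MRPL46, of the large subunit, and MRPS11, of the small one, are the only members that were found head to head with each other. Their starts lie 320 bases apart on chromosome 15, so the windows printed here overlap. Both transcripts fell in THP-1 at 3 h, MRPL46 by 0.43 ± 0.15 (log2, SE, adjusted p = 0.034) and MRPS11 by 0.58 ± 0.16 (adjusted p = 0.0138). The MRPL46 call was kept in 7 of 12 fits that left out 1 array (highest adjusted p 0.215) and the MRPS11 call in 10 of 12 (highest adjusted p 0.111). Both ended without the first THP-1 control array or the first THP-1 3 h array, and MRPL46 also without the second THP-1 control array or either BEAS-2B control array.
MRPL46, chr15:88467339-88467638, minus strand: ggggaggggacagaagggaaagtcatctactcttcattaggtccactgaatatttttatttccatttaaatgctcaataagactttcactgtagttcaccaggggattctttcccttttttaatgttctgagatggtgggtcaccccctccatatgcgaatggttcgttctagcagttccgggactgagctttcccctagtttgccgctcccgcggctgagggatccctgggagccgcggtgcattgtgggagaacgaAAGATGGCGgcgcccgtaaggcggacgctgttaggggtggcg
MRPS11, chr15:88467458-88467757, plus strand: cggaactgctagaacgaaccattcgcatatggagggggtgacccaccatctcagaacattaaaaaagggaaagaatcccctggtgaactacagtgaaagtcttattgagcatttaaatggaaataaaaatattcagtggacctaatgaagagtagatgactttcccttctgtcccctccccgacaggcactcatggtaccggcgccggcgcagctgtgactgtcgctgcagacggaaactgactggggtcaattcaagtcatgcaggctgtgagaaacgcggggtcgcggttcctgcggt
The YY1 letters stood at position 8 of MRPL46. In MRPS24, MRPL50 and MRPL46 these letters thus lay after the start, in the transcribed part of the window. They hold ATG, the letters of a start codon, and whether they belong to coding sequence was not tested. None of the 5 motifs was in the MRPS11 window. Among members with a promoter, the YY1 letters were in 4 of the 31 that fell, 2 of the 4 that rose and 7 of the 33 not called in THP-1 at 3 h. The NRF1 letters were in 4, 0 and 2 of these same sets, and the ETS letters in 3, 1 and 6.

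The first question was whether the dust extract changed the members in THP-1. After 1 h, 0 members passed an adjusted p of 0.05 in limma, the call used throughout, with p-values adjusted over all 15479 features tested. Among all features, 1.26% were higher and 0.381% lower at this time. The members' median change was 0.04 on the log2 scale against -0.03 for all features, and 3 members had an unadjusted p under 0.05. These were MRPL14, with a change of 0.47 ± 0.14 (SE), MRPS17, with 0.37 ± 0.14, and MRPL20, with 0.36 ± 0.14, and their adjusted p-values were 0.185, 0.304 and 0.336. The share of all features under this unadjusted p was not computed, so counts of this kind, here and below, are not read as a response. The 5 genes followed in all dust comparisons lay between -0.20 for MRPS18B and 0.19 for MRPS18C at 1 h, and their adjusted p-values were 0.681 or higher.

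After 3 h in THP-1, 35 members had fallen and 5 had risen. That is 44.9% lower and 6.41% higher, where 26.5% of all features were lower and 19.1% higher. The median member change was -0.30 against -0.05 for all features, and 58 of the 78 members had a negative change. On the THP-1 arrays the median normalized log2 level of the members was 9.41 and 9.38 in the controls, 9.39 and 9.33 at 1 h, and 8.91 and 9.04 at 3 h. Both 3 h arrays lay below the other 4. The 2 dust arrays at 3 h did not overlap the 2 control arrays for 54 members, or 69.2%, which is near the 67.9% among all features. Another scaling moved all features: with arrays scaled on their median, the all-feature median became -0.30 and the members' median -0.62, with 48 members lower and 2 higher. That is 61.5% and 2.56%, against 39.1% and 10.6% of all features. The excess of falls rested in part on single arrays. Without the first 3 h array, 21 members were lower and 2 higher, 26.9% and 2.56%, where 22.2% of all features were lower and 16.4% higher. Without the first control array 21 were lower and 8 higher, 26.9% and 10.3%, against 24.4% and 17.8%. In both of these fits the share of members called in either direction, 29.5% and 37.2%, was below that of all features, 38.6% and 42.1%. In these bulk samples, fewer cells of a type and less RNA per cell cannot be told apart. Of 15 tested monocyte markers 6 fell and 1 rose at 3 h, and of 4 tested markers of A549 and alveolar cells 3 rose and 0 fell. The list of A549 and alveolar markers has 10 genes, and 6 of them were well above background on no THP-1 array. Summed normalized signals of the monocyte markers on the linear scale were 53419 to 53601 in the controls and 44789 to 46596 at 3 h, and the part of such shifts, or of the dimmer 3 h arrays, in the members' result was not tested.

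**Figure D1:**
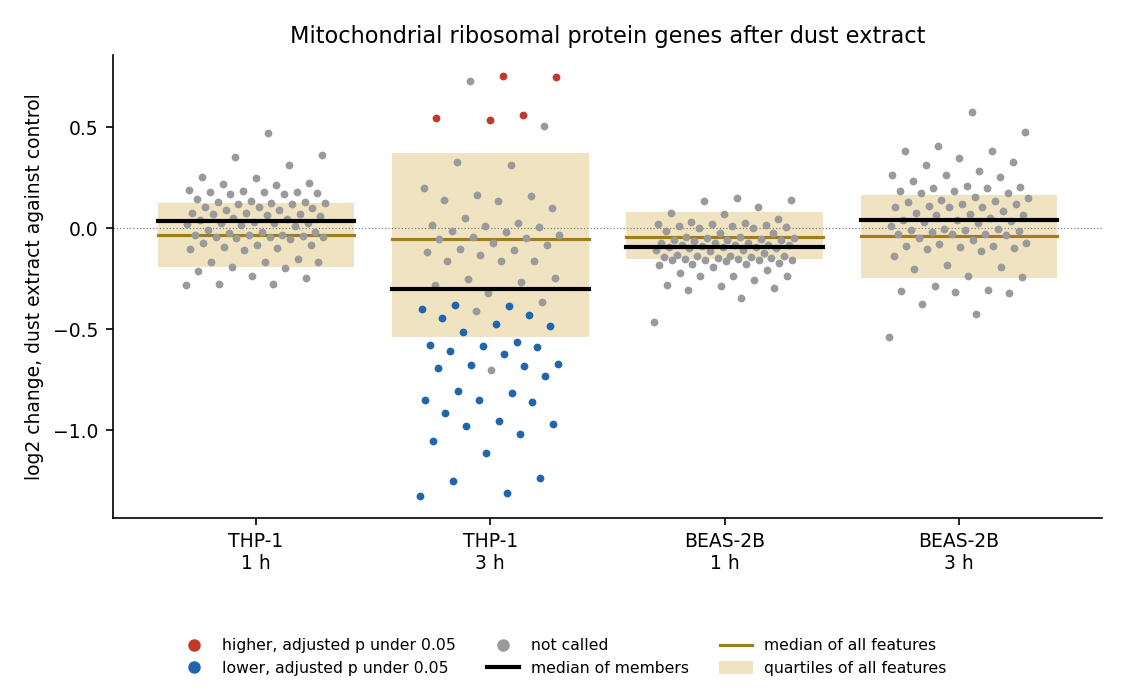
Each point is 1 of the 78 members, with its log2 change between dust extract and control on the y axis and the 4 comparisons on the x axis. Black lines are member medians, brown lines and shading the median and quartiles of all 15479 features. In THP-1 at 3 h the median was -0.30 with 35 lower and 5 higher, and in the other 3 comparisons 0 were called.

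All 4 structural classes held members that fell, where 26.5% of all features were lower and 19.1% higher. Of 29 large-subunit proteins listed as having bacterial counterparts, 15 fell and 3 rose, with a median of -0.38. That list also holds MRPL55, which current nomenclature counts as particular to mitochondria. Of 19 mitochondria-specific large-subunit proteins, 8 fell and 1 rose, with a median of -0.25. Among 17 proteins with bacterial counterparts that are named for the small subunit, MRPS18A included, 6 fell and 1 rose, with a median of -0.16. Among 11 mitochondria-specific proteins named for the small subunit, MRPS30 included, 6 fell and 0 rose, with a median of -0.70 and all 11 changes negative. In the order given here, 51.7%, 42.1%, 35.3% and 54.5% of the classes fell and 10.3%, 5.26%, 5.88% and 0% rose. Differences between the classes were not tested.

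Among the mitochondria-specific proteins of the small subunit, MRPS26 had the largest fall. In unexposed THP-1 its normalized log2 level was 7.89 and 7.72, followed by 7.64 and 7.48 at 1 h, and 6.31 and 6.64 at 3 h. The 3 h arrays lay below all 4 others. This was a change of -1.33 ± 0.19 (SE) or 2.51-fold lower than control (adjusted p = 2.61e-04). MRPS23 was at 8.56 and 8.37 in the controls, 8.62 and 8.60 at 1 h, and 7.42 and 7.48 at 3 h, a 2.02-fold fall (-1.02 ± 0.14, adjusted p = 1.60e-04). Its 1 h arrays lay above both controls and its 3 h arrays below them. MRPS34 was at 8.32 and 7.78 in the controls and at 6.39 and 7.48 at 3 h. Its 3 h arrays lay far apart, and its fall of 1.11 ± 0.30 (adjusted p = 0.0121) was no longer called without the first control array (adjusted p = 0.0913) or the first 3 h array (adjusted p = 0.0847). MRPS27 fell by 0.86 ± 0.14 and MRPS31 by 0.73 ± 0.13.

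Falls of similar size were also found among large-subunit members. MRPL43, which is particular to mitochondria, was at 9.24 and 9.0 in the controls, 9.13 and 8.89 at 1 h, and 7.60 and 8.01 at 3 h, a 2.48-fold fall (-1.31 ± 0.17, adjusted p = 1.17e-04). MRPL45, which contacts the inner membrane beside the tunnel where new proteins leave, was at 10.68 and 10.69 in the controls, 10.52 and 10.51 at 1 h, and 9.64 and 9.62 at 3 h. Its replicates lay close together in all 3 THP-1 groups, and it fell 2.08-fold (-1.05 ± 0.12, adjusted p = 6.54e-05). MRPL34, a small protein with a bacterial counterpart, was at 9.86 and 9.41 in the controls and at 8.38 and 8.42 at 3 h, a 2.35-fold fall (adjusted p = 5.30e-04). MRPL1, the counterpart of a bacterial protein beside the exit site for transfer RNA, was at 8.91 and 8.04 in the controls and at 6.89 and 7.55 at 3 h, with no overlap. It fell by 1.25 ± 0.29 (adjusted p = 0.00514). MRPL17, MRPL35 and MRPL55 fell by 0.97 ± 0.20, 0.95 ± 0.15 and 0.98 ± 0.15.

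**Figure D2:**
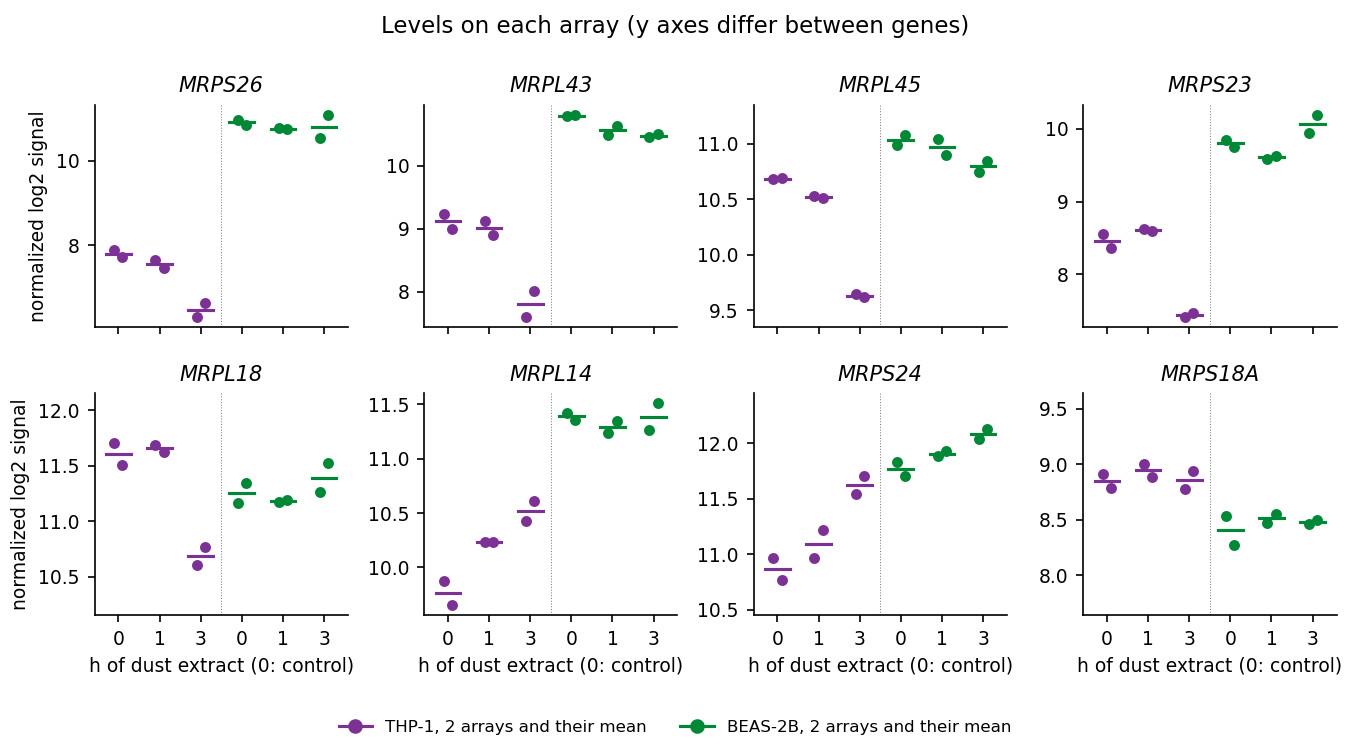
Normalized log2 signal (y axis, with a range of its own for each gene) of 8 members on every array, by hours of dust extract (x axis), with THP-1 in purple and BEAS-2B in green. Lines are the means of 2 arrays. MRPS26, MRPL43, MRPL45, MRPS23 and MRPL18 were lowest on the THP-1 3 h arrays, MRPL14 and MRPS24 were higher there than in the THP-1 controls, and the MRPS18A groups of THP-1 overlapped.

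MRPL12, of the stalk that recruits elongation factors, was at 9.27 and 8.97 in the THP-1 controls and at 8.27 and 8.73 at 3 h. It fell by 0.62 ± 0.19 (adjusted p = 0.0211), and MRPL10, at the base of that stalk, fell by 0.51 ± 0.15 (adjusted p = 0.0165). The MRPL12 call was lost without the first control array (adjusted p = 0.124), without the first 3 h array (adjusted p = 0.16) and when the lines were normalized apart (adjusted p = 0.0532). The MRPL10 call was also lost without the first control array or the first 3 h array. MRPL58, a peptidyl-tRNA hydrolase that is also built into the large subunit, fell by 0.80 ± 0.17 (adjusted p = 0.00305). MRPS14 was called lower (adjusted p = 0.0255) but was not well above background on either 3 h array. The fall of its mean is therefore given as at least 1.13-fold, a bound that leaves out the spread between arrays. The MRPS14 call was lost without the first control array or either 3 h array.

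Of the 3 paralogues related to bacterial protein S18, 2 were called lower and 1 was not called, and the differences between them were not tested. MRPS18B was at 9.40 and 9.08 in the THP-1 controls and at 8.25 and 8.60 at 3 h, and fell by 0.81 ± 0.19 (adjusted p = 0.00559). MRPS18C was at 11.19 and 10.96 in the controls and at 10.49 and 10.72 at 3 h, and fell by 0.47 ± 0.14 (adjusted p = 0.0186). MRPS18A, which sits in the large subunit, was at 8.91 and 8.79 in the controls and at 8.78 and 8.94 at 3 h, a change of 0.01 ± 0.14 (adjusted p = 0.974). With median scaling it was called lower, at -0.44 (adjusted p = 0.027). The MRPS18C call ended without the first control array (adjusted p = 0.107), without the first 3 h array (adjusted p = 0.117) and with the lines normalized apart (adjusted p = 0.0643). MRPS30, the other protein named for the small subunit that sits in the large one, was at 9.55 and 9.38 in the controls and at 9.02 and 8.52 at 3 h. It fell by 0.69 ± 0.25 (adjusted p = 0.0412), and that call ended in 8 of 21 alternatives.

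The 5 members that rose were MRPL14, MRPS24, MRPL50, MRPL47 and MRPL15. MRPL14, a large-subunit protein at the interface with the small subunit, was at 9.87 and 9.65 in the THP-1 controls, 10.24 and 10.24 at 1 h, and 10.43 and 10.61 at 3 h. Each group lay above the one before it, and at 3 h the rise was 1.69-fold (0.75 ± 0.14, adjusted p = 0.0016). MRPS24, the counterpart of bacterial S3, where messenger RNA enters, was at 10.97 and 10.77 in the controls, 10.97 and 11.22 at 1 h, and 11.54 and 11.71 at 3 h. Its 3 h arrays lay above all 4 others, a 1.68-fold rise (adjusted p = 0.00162). Both calls remained in all 12 fits that left out 1 array and under median scaling, where the changes were 0.50 and 0.70. MRPL50, MRPL47 and MRPL15 rose 1.48-fold, 1.46-fold and 1.45-fold (adjusted p of 0.0163, 0.0121 and 0.0158). Under median scaling their changes were 0.23, 0.06 and 0.25 and none of the 3 was called. Their calls also ended without the first 3 h array (adjusted p of 0.0762, 0.0541 and 0.11) or the second control array (adjusted p of 0.0902, 0.0785 and 0.0904).

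Of the 35 calls of a fall, 18 remained in all 12 fits that left out 1 array, and of the 5 rises 2 did. Besides the chosen probe, 23 members had 26 further probes past the filter. Their SEs, calls and adjusted p-values, here and below, came from a separate fit of all 19045 kept probes, adjusted over those probes. In THP-1 at 3 h, 22 of these 26 had the same sign as the chosen probe. The other MRPL18 probe changed by -1.06 ± 0.17 against -0.91 for the chosen one, and the other MRPS27 probe by -1.16 ± 0.14 against -0.86. MRPL35 had 3 probes, at -0.95, -0.76 and -0.64. For MRPS12, a protein of the decoding centre, the chosen probe changed by -0.11 and was not called, while the dimmest of its probes was called higher at 0.79 ± 0.18. MRPL30 was not called by its chosen probe (-0.28 ± 0.16), but its second probe was lower by -0.85 ± 0.22 (adjusted p = 0.00881). Probes can read different transcripts of a gene, and which transcripts these probes read was not tested.

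Between 1 h and 3 h in THP-1, 31 members fell and 2 rose, 39.7% and 2.56% of the 78. Of all features, 22.7% were lower and 16.8% higher. This comparison shares its 3 h arrays with the one against control. The largest falls were MRPL34, 2.57-fold, MRPL1, 2.43-fold, MRPL43, 2.30-fold, MRPS23, 2.24-fold, and MRPS26, 2.11-fold, with adjusted p-values from 9.26e-05 to 0.0057. The rises were MRPS24, 1.44-fold (adjusted p = 0.0141), and MRPL15, 1.38-fold (adjusted p = 0.0338). Without the first 1 h array 20 members were lower and 0 higher, 25.6% and 0%, against 18.1% and 13.4% of all features, and the adjusted p-values of these 2 rises were 0.103 and 0.0625. The MRPS24 call also ended without the second 3 h array (adjusted p = 0.0769), and the MRPL15 call ended in 7 of 21 alternatives (adjusted p from 0.0185 to 0.222 over all). With median scaling 49 were lower and 1 higher, 62.8% and 1.28% against 31.4% and 9.57% of all features, the all-feature median moved from -0.03 to -0.21, and the members' median from -0.34 to -0.61.

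Genes that act with the mitochondrial ribosome were examined beside its proteins. Of 20 measured genes for its assembly and rRNA modification, 9 fell and 4 rose in THP-1 at 3 h, with a median of -0.15. NOA1, a GTPase of small-subunit assembly, fell by 1.63 ± 0.16, TFB1M, which methylates the small-subunit rRNA, by 1.53 ± 0.18, and METTL17, another small-subunit assembly factor, by 1.16 ± 0.19. Of 13 mitochondrial translation factors 5 fell and 1 rose, with the same median of -0.15. The membrane insertase OXA1L fell by 1.37 ± 0.14 and the initiation factors MTIF2 and MTIF3 by 1.08 ± 0.13 and 1.31 ± 0.22. Among 13 genes of mitochondrial transcription and its regulators 4 fell and 3 rose. The 3 rises were in coactivators or subunits linked to NRF1 and GABP: PPRC1 rose 3.99-fold (2.00 ± 0.18, adjusted p = 1.09e-05), GABPB1 3.04-fold (1.60 ± 0.22), and PPARGC1B was called higher (adjusted p = 0.00125) but was well above background on only 2 of the 6 THP-1 arrays. GABPA, the DNA-binding partner of GABPB1, changed by -0.53 (adjusted p = 0.0427) and YY1 by -0.56 (adjusted p = 0.0112). For 3 further mitochondrial ribosomal proteins with other symbols (DAP3, CHCHD1 and GADD45GIP1) changes were 0.24, -0.39 and 0.06, and 0 were called.

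Of 68 nuclear genes of the respiratory chain and ATP synthase, 13 fell and 1 rose, with a median of -0.12. NDUFS3 and NDUFS7, of complex I, fell by 1.21 ± 0.14 and 0.76 ± 0.12, and ATP5F1A, of the ATP synthase, by 1.16 ± 0.16. Of 68 cytosolic ribosomal protein genes 4 fell and 4 rose, with a median of -0.02. RPL13A fell by 1.18 ± 0.13, whereas RPS7 rose 1.78-fold and RPL34 1.59-fold. Of 29 genes for building cytosolic ribosomes 17 rose and 2 fell, with a median of 0.48. BYSL and RRP12, processing factors of the small cytosolic subunit, rose 2.64-fold and 2.44-fold, and WDR12, of the large one, fell by 1.47 ± 0.13. The lists are read against the 19.1% higher and 26.5% lower among all features, and differences between lists were not tested.

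**Figure D3:**
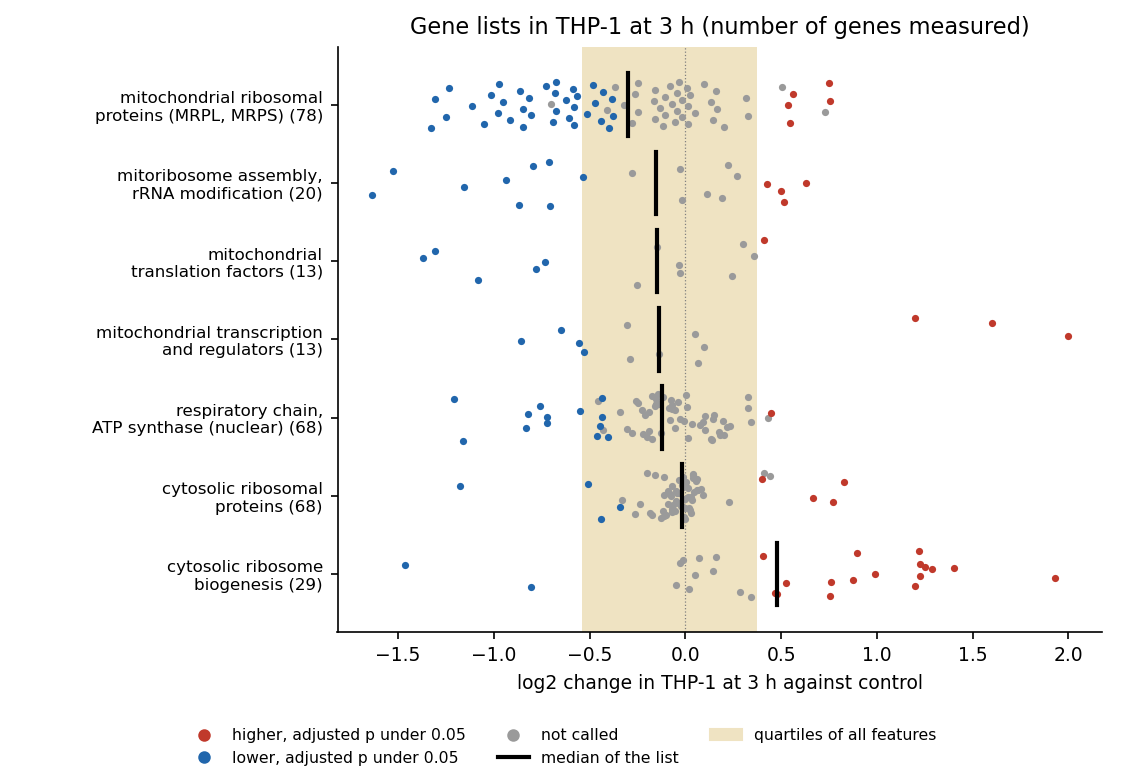
Log2 changes in THP-1 at 3 h (x axis) for the 78 members and 6 other gene lists (y axis), 1 point per gene, with black bars for the list medians and shading for the quartiles of all features. Medians ran from -0.30 for the members to 0.48 for cytosolic ribosome biogenesis, and cytosolic ribosomal proteins lay near 0 at -0.02.

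BEAS-2B cells were examined with the same questions. After 1 h, 0 members were called, where 1.09% of all features were higher and 0.0775% lower. The median change was -0.09 against -0.04 for all features, and 1 member, the antisense RNA MRPL20-AS1, had an unadjusted p under 0.05 (-0.47 ± 0.16, adjusted p = 0.446). After 3 h, 0 members were called again, where 3.29% of all features were higher and 2.21% lower. The median was 0.04 against -0.04, and 8 members had an unadjusted p under 0.05, again with no share of all features computed. The median normalized log2 level of the members was 10.10 and 10.04 on the control arrays, 10.04 and 10.08 at 1 h, and 10.04 and 10.28 at 3 h, so that the groups overlapped.

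MRPS26 in BEAS-2B was at 10.96 and 10.85 in the controls and at 10.52 and 11.08 at 3 h. Its groups overlapped, and the change was -0.10 with a 95% interval from -0.53 to 0.32. MRPL43 was at 10.78 and 10.80 in the controls and at 10.45 and 10.50 at 3 h, without overlap, a change of -0.32 (interval -0.69 to 0.05, adjusted p = 0.319). MRPL14 was at 11.42 and 11.36 in the controls and at 11.27 and 11.51 at 3 h (-0.00, interval -0.32 to 0.32). The largest positive change was that of MRPL30, 0.58 ± 0.16 (adjusted p = 0.0643), while its second probe had a change of -0.30 ± 0.22 (adjusted p = 0.49). MRPS14 was not well above background on either 3 h array, and its change was not called (adjusted p = 0.118). Its mean was at least 1.25-fold below that of the controls, a bound that leaves out the spread between arrays. MRPS18A, MRPS18B, MRPS18C, MRPL12 and MRPS30 had changes of 0.07, -0.03, 0.18, 0.23 and 0.15 at 3 h, with adjusted p-values of 0.526 or higher.

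Between 1 h and 3 h in BEAS-2B, 1 member rose and 0 fell, 1.28% and 0% of the 78, against 1.41% and 1.29% of all features. It was MRPL15, a large-subunit protein with a bacterial counterpart. Its log2 level was 9.59 and 9.55 in the controls, 9.46 and 9.27 at 1 h, and 9.94 and 10.15 at 3 h. The 3 h arrays lay above the other 4, a 1.60-fold rise over 1 h (0.68 ± 0.15, adjusted p = 0.0465), and the call ended in 13 of 22 alternatives (adjusted p from 0.0231 to 0.266 over all). Of the 29 genes for building cytosolic ribosomes, 9 rose and 0 fell at 3 h against control in BEAS-2B, with a median of 0.37. In that comparison 0 of the 68 cytosolic ribosomal protein genes were called, where 3.29% of all features were higher and 2.21% lower.

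Whether the dust response differed between the lines was tested as the difference between their effects, which shares all control and dust arrays with the comparisons above. At 1 h, 0 members differed, where 0.265% of all features were more positive in BEAS-2B and 0.304% more negative. An unadjusted p under 0.05 was found for 3 members, with no share of all features computed. At 3 h, 19 members, or 24.4%, were more positive in BEAS-2B and 1, or 1.28%, was more negative. Of all features 14.9% and 11.7% were. The median difference was 0.36 against 0.03 for all features. Leaving out 1 array gave from 9 to 25 calls, 9 without the first BEAS-2B control array, 10 without the second, 12 without the second BEAS-2B 3 h array and 13 without the first THP-1 control array. In these 4 fits 11.5%, 12.8%, 15.4% and 16.7% of members were called in either direction, below the 17.9%, 18.5%, 20.5% and 23.3% of all features. More positive in BEAS-2B were 11.5%, 12.8%, 12.8% and 14.1% of members against 9.81%, 10.2%, 11.4% and 13.2% of all features, so the members' share then lay near the background. With median scaling 38 were more positive and 0 more negative, 48.7% and 0% against 22.3% and 7.62% of all features, and the all-feature median moved to 0.25 and the members' median to 0.75.

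MRPS23 had a change of -1.02 in THP-1 and 0.27 in BEAS-2B at 3 h, a difference of 1.28 ± 0.19 (adjusted p = 9.51e-04). MRPS26 differed by 1.22 ± 0.27 (adjusted p = 0.00776) and MRPL17 by 1.06 ± 0.28 (adjusted p = 0.0189). The MRPL17 call ended without the second THP-1 control array (adjusted p = 0.0515) or either BEAS-2B control array (adjusted p of 0.0606 and 0.0545). MRPL18 was at 11.70 and 11.50 in the THP-1 controls and at 10.61 and 10.77 at 3 h, while in BEAS-2B it was at 11.17 and 11.34 and then at 11.27 and 11.52. The THP-1 groups did not overlap and the BEAS-2B groups did, a difference of 1.05 ± 0.21 (adjusted p = 0.00419). MRPL1 had the largest difference, 1.38 ± 0.41 (adjusted p = 0.0315), but its call ended in 6 of 20 alternatives, among them the fits without the first THP-1 control array (adjusted p = 0.0938) and without either BEAS-2B control array (adjusted p of 0.0636 and 0.0985). MRPL14 was the 1 member that was more negative in BEAS-2B, at -0.75 ± 0.20 (adjusted p = 0.0202). That call ended under median scaling (-0.40, adjusted p = 0.222) and in 5 fits that left out 1 array, with the highest adjusted p 0.0727 among these. For MRPL43 the difference was 0.99 ± 0.24 and for MRPL45 0.82 ± 0.17, and 8 of the 19 positive calls remained in all 12 fits that left out 1 array.

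**Figure D4:**
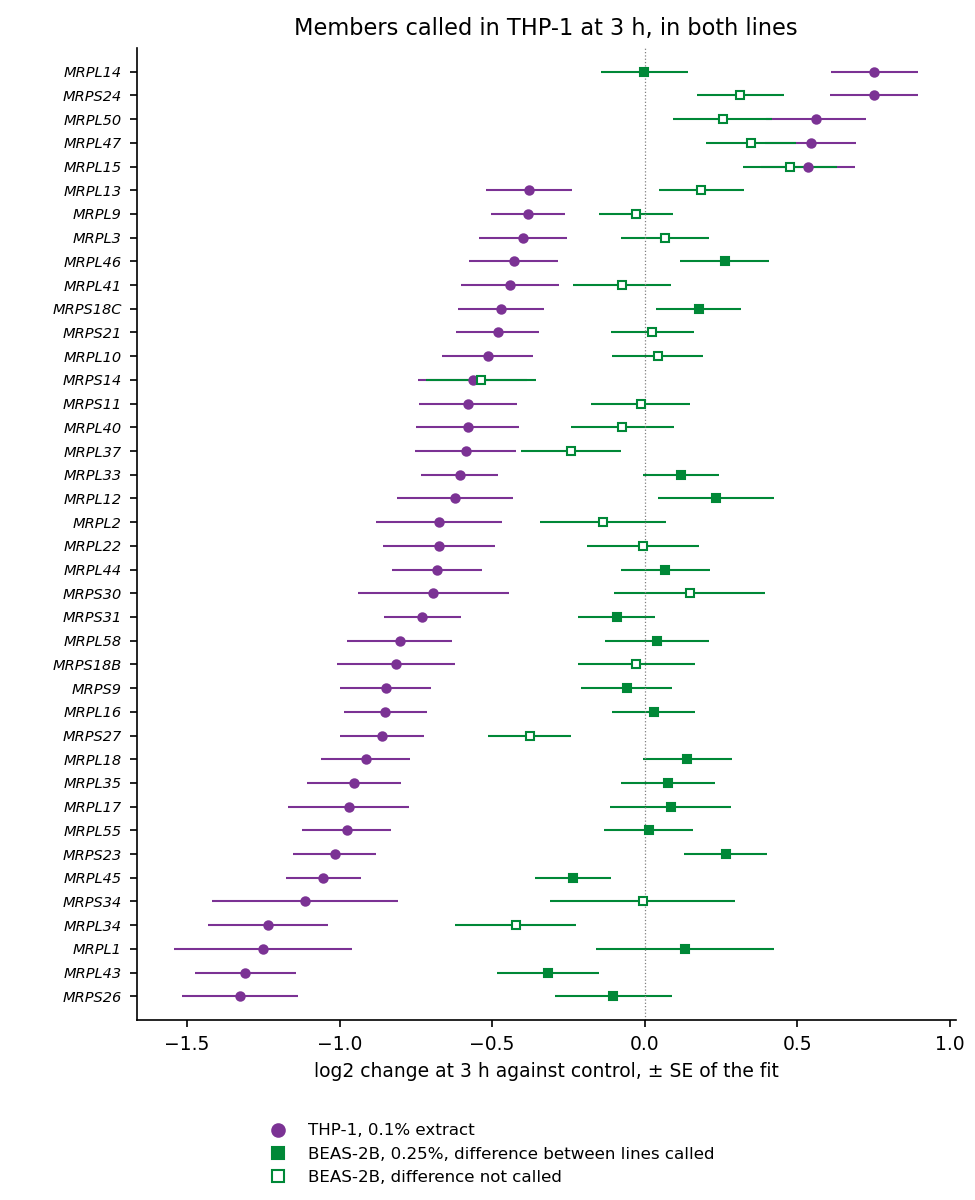
Log2 change at 3 h against control with the SE of the fit (x axis) for the 40 members called in THP-1 (y axis), with circles for THP-1 and squares for BEAS-2B. Filled squares mark a called difference between the lines. Most BEAS-2B squares lie near 0, and MRPS14 was not well above background at 3 h in either line.

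The unexposed lines were then compared with each other. Of the 78 members, 50 were higher in BEAS-2B than in THP-1 and 3 were lower, 64.1% and 3.85%, against 32.2% and 30.1% of all features. The median difference was 0.63 against 0.01 for all features, and the arrays of the lines did not overlap for 64 members, or 82.1%, near the 82% among all features. Of 19 mitochondria-specific large-subunit genes 15 were higher, with a median of 0.85, and of 17 genes with bacterial counterparts named for the small subunit 12 were higher and 3 lower, with a median of 0.99. Of 29 large-subunit genes with bacterial counterparts 16 were higher (median 0.47) and of 11 mitochondria-specific genes named for the small subunit 7 (median 0.38). With median scaling 54 were higher and 1 lower, 69.2% and 1.28% against 35.6% and 26.3% of all features, and the all-feature median was 0.11. Of the 50 calls, 39 remained in all 12 fits that left out 1 array.

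MRPS26, the member with the largest fall in THP-1 at 3 h, was also the member with the largest difference between the unexposed lines. In BEAS-2B its log2 level of 10.96 and 10.85 compares with 7.89 and 7.72 in THP-1 and was 8.57-fold higher (3.10 ± 0.19, adjusted p = 1.82e-07). MRPL51 was at 10.70 and 10.70 in THP-1 and at 12.70 and 12.64 in BEAS-2B, 3.91-fold higher. MRPL52, MRPL36 and MRPL43 were higher 3.51-fold, 3.32-fold and 3.19-fold, with adjusted p-values from 5.10e-06 to 8.16e-06. MRPL51, MRPL52 and MRPL43 are particular to mitochondria and MRPL36 has a bacterial counterpart.

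The 3 members that were lower in BEAS-2B all have small-subunit names. MRPS10 was at 11.15 and 11.25 in THP-1 and at 10.50 and 10.20 in BEAS-2B, 1.81-fold lower in BEAS-2B (adjusted p = 4.04e-04). MRPS18A and MRPS21 were 1.36-fold and 1.31-fold lower (adjusted p of 0.0177 and 0.0299), and neither call remained with median scaling (adjusted p of 0.158 and 0.152). The MRPS18A call also ended without the first THP-1 control array (-0.38) or the second BEAS-2B control array (-0.31). The MRPS21 call ended on leaving out any control array of either line. A second MRPS21 probe went the other way, at 0.60 ± 0.19 (adjusted p = 0.018), and the mean of its probes was 0.11. Both further probes of MRPL35 were higher in BEAS-2B, at 0.65 and 0.59, while its chosen probe was at -0.09 and was not called. Over all 26 further probes 23 had the sign of the chosen one. Nuclear genes of the respiratory chain and ATP synthase were higher in BEAS-2B for 26 of 68 and lower for 5. Cytosolic ribosomal protein genes were higher for 9 and lower for 6 of 68, and cytosolic ribosome biogenesis genes for 22 and 0 of 29. Of all features 32.2% were higher and 30.1% lower in this comparison, and differences between the lists were not tested.

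**Figure D5:**
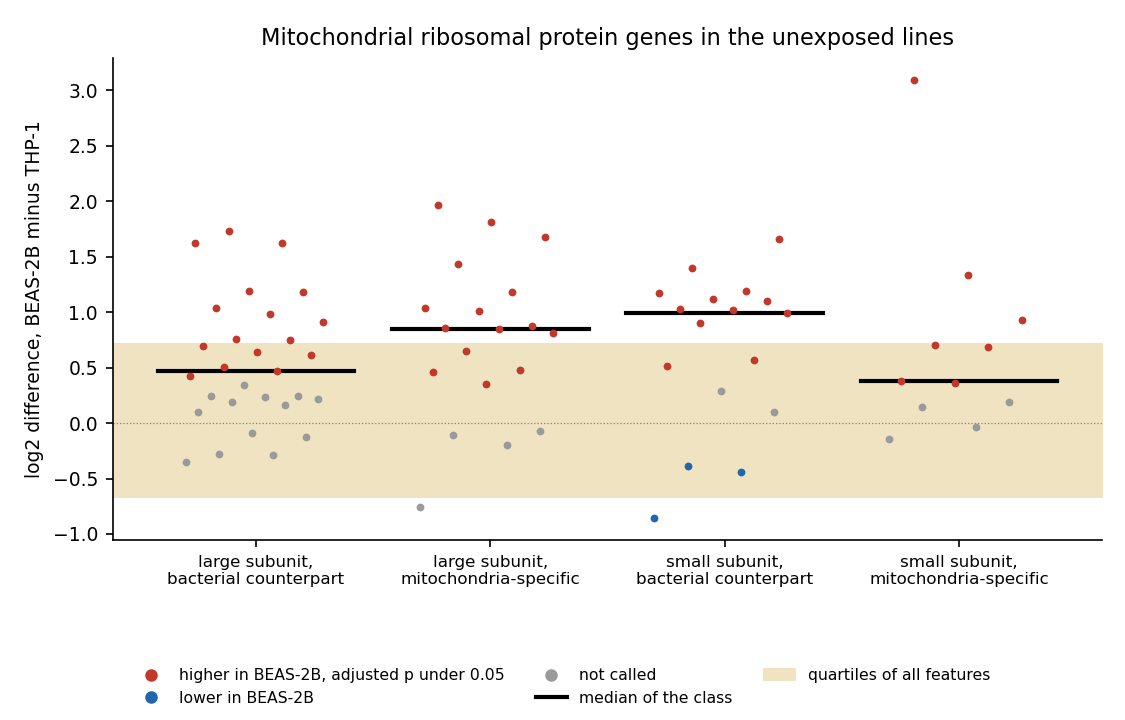
Log2 difference between control BEAS-2B and control THP-1 (y axis) for the 76 protein-coding members in 4 structural classes (x axis), with black lines for class medians and shading for the quartiles of all features. Medians were 0.47, 0.85, 0.99 and 0.38 from left to right, and MRPS26 stands apart at 3.10.

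Signals of different probes cannot be set against each other as levels of their genes. As a description of the probes, mean raw signals of the 78 tested members ran from 97.9 to 7468. By mean normalized log2 level, the probes of MRPL33, MRPL37 and MRPS21 were the highest and those of MRPL42P5, MRPS14 and MRPL30 the lowest of those tested. The median number of beads behind a member's value ranged from 16 to 29.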

How the data were processed

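The deposited raw table held, per the file headers, a mean bead signal intensity, its standard error, a bead count and a detection p-value for each of 47320 probes on 12 arrays. GenomeStudio 2011.1 is named in the submitters' processing notes, and other steps are not given in the sources used here. A deposited value table, also an intensity, was used as an alternative. Its sorted columns lay within 0.821% of the mean sorted raw signal, so quantile normalization without background subtraction was read from the values.

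Signals were background-corrected and quantile-normalized to log2 values with neqc (offset 16) in limma 3.58.1 under R 4.3.3. Probes were kept where both replicates of some group had a detection p under 0.01, and the brightest probe stood for each gene. Exactly 1 symbol was annotated for 30112 probes, several for 8 and none for 17200, and 30073 symbols were updated through Entrez identifiers. A model with 6 group means gave 9 comparisons by lmFit and eBayes, with 6 residual degrees of freedom and a prior worth 4.3, with Benjamini-Hochberg adjustment over 15479 features, of which 4067 were unnamed probes. Further probes of the members were fitted apart, with adjustment over all 19045 kept probes. The procedure was tested on simulated data. The number of arrays limits the precision.

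Members and lists were chosen with earlier results of these data known. Named members were the up to 10 largest called changes in each direction against control, the up to 5 largest in other comparisons, 5 followed genes, the 3 highest and 3 lowest by mean log2 level, and up to 3 genes of each other list; genes of the head-to-head pairs, promoters, further probes and regulators beyond these were named after their values were seen. Alternatives were other background, scaling, filter, probe, variance and value-table choices, each line on its own, a replicate block and leaving out each array.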

Additional observations from a re-analysis of the deposited data

Results flagged for a closer look

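For 6 named members the effect of dust extract at 3 h differed between the lines by the test of the difference itself, in limma with adjustment over all features. The log2 difference, BEAS-2B minus THP-1, was 1.38 ± 0.41 (SE) for MRPL1 (adjusted p = 0.0315), 1.28 ± 0.19 for MRPS23 (adjusted p = 9.51e-04) and 1.22 ± 0.27 for MRPS26 (adjusted p = 0.00776). It was 1.06 ± 0.28 for MRPL17 (adjusted p = 0.0189) and 1.05 ± 0.21 for MRPL18 (adjusted p = 0.00419). MRPL14 differed in the opposite direction, by -0.75 ± 0.20 (adjusted p = 0.0202). Of 20 alternatives, the call ended in 6 for MRPL1, 3 for MRPL17 and 6 for MRPL14. The dose and the position on the chip differed with the line and cannot be told apart from it.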

How the results depend on the processing

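Groups of 2 arrays limit every call. Of the values of named members under the alternatives, 1096 kept their direction and side of the threshold, 71 kept the direction but lost the call and 17 changed sign. With median scaling, 50 members were called between 3 h and 1 h in THP-1, where 6347 of 15479 features were. In that setting 38 differed between the lines at 3 h, where 4627 features did. Between 3 h and 1 h in BEAS-2B 0 members were called, where 525 features were. That last count of members was also 0 with each line on its own (360 features called) and with no filter (323 of 37253 features). It was 2 with no background correction, where 450 of 15479 features were called. In BEAS-2B at 3 h against control, 1 member was called with no background correction, with each line on its own and with the authors' value table. In these settings 1016, 997 and 1012 of 15479 features were called. Leaving out 1 array gave 23 to 38 calls in THP-1 at 3 h against control, 20 to 34 between 3 h and 1 h in THP-1, 0 to 1 between 3 h and 1 h in BEAS-2B, 9 to 25 between the lines at 3 h and 42 to 54 between the controls. It gave 0 in the other comparisons. At the lowest counts of THP-1 at 3 h against control, THP-1 between 3 h and 1 h, the lines at 3 h and the controls, 29.5%, 25.6%, 11.5% and 53.8% of members were called, against 38.6%, 31.5%, 17.9% and 52.2% of all features. These shares count calls in either direction, so they do not show which way the calls went. In the main fit of the controls, 64.1% of members were higher and 3.85% lower in BEAS-2B, against 32.2% and 30.1% of all features. The cause of the changes in these counts was not tested.

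The replicate number was also used as a replicate block. Brackets give shares called in either direction, members against all features, so they do not show which way the calls went. In THP-1, 42 members were called at 3 h (53.8% against 49%) and 34 between 3 h and 1 h (43.6% against 42.9%). Between the lines at 3 h 22 were called (28.2% against 30%), and between the controls 54 (69.2% against 64.3%). Between 3 h and 1 h in BEAS-2B 1 member was called, where 441 of 15479 features were. In the other comparisons 0 members were called. Deviations of arrays with the same number correlated at 0.34, 0.29 and 0.24 in THP-1 and at 0.20, 0.01 and -0.11 in BEAS-2B, and nothing states that the numbers pair the arrays. A crossed pairing, added after seeing the data, gave 1 call among the members between 3 h and 1 h in BEAS-2B, where 487 of 15479 features were called.

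The changes of sign were in values that were not called, except where a p is given. With median scaling, MRPS18A was -0.0145 and MRPL12 -0.0921 in THP-1 at 1 h, MRPS18A was -0.442 in THP-1 at 3 h (adjusted p = 0.027) and MRPS18B was 0.028 in BEAS-2B at 3 h. Between the controls the mean of the MRPS21 probes was 0.106, against -0.386 for the chosen probe, which was called. Leaving out 1 array gave -0.131 to 0.166 for MRPL12 and -0.276 to 0.0869 for MRPS30 in THP-1 at 1 h, and -0.0725 to 0.0875 for MRPS18A in THP-1 at 3 h. It gave -0.0257 to 0.238 for MRPS18A and -0.105 to 0.204 for MRPS30 in BEAS-2B at 1 h. At 3 h in BEAS-2B it gave -0.0581 to 0.205 for MRPS18A, -0.232 to 0.179 for MRPS18B and -0.167 to 0.46 for MRPS30.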
